A study of Mus musculus with 6 samples.

Results

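The genes described here code for the protein-folding machinery of the cytosol and of mitochondria: 34 genes of the Hsp90, Hsp70, Hsp110, J-domain, Hsp60 and Hsp10 families, the cytosolic chaperonin CCT, their co-chaperones and the heat shock factor *Hsf1*. All 34 were found by symbol among the 24972 rows of the table, and all 34 were among the 12091 genes tested. They were measured by RNA sequencing in macrophages grown from bone marrow of wild-type (WT) mice and of mice with a knockout of *Lcn10* (Lcn10-KO), a gene for a secreted lipocalin, a small carrier protein. Each genotype has 3 libraries. The cells of both genotypes were untreated and were grown in medium with supernatant of L929 cells, a fibroblast line that secretes macrophage colony-stimulating factor. The labels used here give no strain, sex or age, no description of the knockout allele, and no statement that the replicates came from separate mice. The errors below thus rest on the spread between libraries, which may be technical.

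The set was selected on the contrast between genotypes: its families were chosen by their lower normalized counts in Lcn10-KO, after these had been seen. The difference between genotypes in these 34 genes is therefore a description, and no count of members below supports a difference. The WT values, and so the spread between WT libraries, are part of that contrast. The order of levels between genes and the promoter sequences are not.

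Chaperones bind unfolded stretches of other proteins and let them go again in cycles driven by ATP. Hsp70 takes up short hydrophobic segments with the help of J-domain proteins and releases them with the help of nucleotide exchange factors such as the Hsp110 proteins; Hsp90 receives partly folded kinases and steroid receptors from Hsp70; CCT, a double ring of different subunits, encloses actin and tubulin; and Hsp60 with its lid Hsp10 does similar work in the mitochondrial matrix. The heat shock factor HSF1 raises many of these genes under proteotoxic stress by binding inverted repeats of GAA in their promoters, the heat shock elements.

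The promoter letters are shown first, because they divide the set into genes with and without this element. RefSeq windows of 250 bases before to 50 after the transcript start (GRCm38.p6, the assembly that mm10 names) matched 28 of the 34 symbols, all but *Hsp90aa1*, *Hsp90ab1*, *Hspa8*, *Hspa9*, *Hsf1* and *Cct4*. The windows were searched on both strands for 2 adjoining units, GAANNTTC or TTCNNGAA, and for 3, GAANNTTCNNGAA, which contains both of the shorter ones. A pair of units was present for 14 of the 28 genes for 4587 of all 27025 genes with a window, and in 15.1% of all windows of this length. The 3-unit form was present for 4 of the 28 genes, *Hspd1*, *Hspe1*, *Hsph1* and *Chordc1*, and for 0.662% of all genes. The sites of 30 bases around the elements of these genes, of the stress-inducible *Hspa1a* and *Hspa1b* and of *Fkbp4* are printed 5′ to 3′ on the strand of the gene, with the units of the element in capitals:
*Hspe1* (chr1:55088053-55088082, plus strand): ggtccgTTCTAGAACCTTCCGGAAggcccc
*Hspd1* (chr1:55088053-55088082, minus strand): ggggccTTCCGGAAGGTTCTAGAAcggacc
*Hsph1* (chr5:149636279-149636308, minus strand): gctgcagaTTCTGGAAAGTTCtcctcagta
*Chordc1* (chr9:18292260-18292289, plus strand): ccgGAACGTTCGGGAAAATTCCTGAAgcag
*Hspa1a* (chr17:34972242-34972271, minus strand): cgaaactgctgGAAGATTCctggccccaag
*Hspa1b* (chr17:34959324-34959353, minus strand): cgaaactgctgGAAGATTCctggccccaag
*Fkbp4* (chr6:128438789-128438818, minus strand): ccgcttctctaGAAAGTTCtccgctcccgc

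The first pair of lines is one site read on its 2 strands. *Hspd1* and *Hspe1*, which code for Hsp60 and Hsp10, are transcribed away from each other. *Hspd1* has 2 RefSeq windows: one shares 285 bases with that of *Hspe1* and holds the element, and the other, from a start farther upstream of *Hspd1*, shares 4 bases and holds none. The element begins 89 bases before the start of *Hspe1* and 144 bases before the start of the first *Hspd1* window, and it lies downstream of the other *Hspd1* start. A gene with several windows is counted where any of them holds the letters. In *Hsph1* it begins 15 bases after a transcript start and in *Chordc1* 4 bases before one, and *Chordc1* has the most units in a row of the sites printed. The windows of *Hspa1a* and *Hspa1b* differ at 4 of 300 positions, and their 30-base sites are identical. The gene with the largest difference between genotypes, *Fkbp5*, has none of the elements searched for in its window, which holds 2 CCAAT boxes and an E-box (CACGTG). In GENCODE the gene extends farther upstream, to position 28517527 of chromosome 17. The sequence around that start was not searched, so an element there is not excluded. Among all genes 41.1% have a CCAAT box and 8.09% an E-box in their windows. The 250 bases before the RefSeq start of *Fkbp5*, none of which a GENCODE exon covers, are shown with those of *Hspa1a*, where the element is in capitals:
*Fkbp5* (chr17:28486150-28486399, minus strand): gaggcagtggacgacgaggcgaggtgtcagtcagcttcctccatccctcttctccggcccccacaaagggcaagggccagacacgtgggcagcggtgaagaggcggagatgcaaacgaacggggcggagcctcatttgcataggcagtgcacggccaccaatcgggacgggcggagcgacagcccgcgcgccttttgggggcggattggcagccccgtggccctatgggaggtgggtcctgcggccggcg
*Hspa1a* (chr17:34972157-34972406, minus strand): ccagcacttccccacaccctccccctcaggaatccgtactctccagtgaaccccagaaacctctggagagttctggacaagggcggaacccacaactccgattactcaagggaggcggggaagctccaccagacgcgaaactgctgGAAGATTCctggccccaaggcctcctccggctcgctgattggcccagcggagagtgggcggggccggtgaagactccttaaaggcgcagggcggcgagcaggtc
The median log2 fold change (Lcn10-KO minus WT) was −0.099 over the 14 genes with a pair of units and −0.13 over the 14 genes with a window but without one. A match of letters is a description of the window and shows neither binding nor its absence.

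The libraries held about 18009331 to 24848961 reads, judged from the value of a single read. *Lcn10* was listed at 0 in all 6, so it checks no label. The 10 macrophage markers summed to 296854 to 306307 normalized counts in WT and 316199 to 327733 in Lcn10-KO, with each of the 10 detected and no overlap, in the direction opposite to the chaperones. Most of this sum was *Lyz2*, at 165280 to 180316 in WT and 181584 to 193715 in Lcn10-KO, which was not called (limma adjusted p = 0.164). The missing overlap of the sum thus rests mainly on that gene. *Adgre1* and *Mertk* were called higher, and *Csf1r* and *Cd14* lower. B cell markers summed to 17.9 to 32.7 and 33.6 to 40.1 without overlap, nearly all of it *Cd79b*, while *Cd79a*, *Ms4a1* and *Pax5* were at 0 in each WT library and at or near 0 in Lcn10-KO. The summed markers of neutrophils and progenitors (344 to 469 in WT), dendritic cells (1346 to 2041), fibroblasts (3039 to 4748), endothelium (362 to 488), T and NK cells (4.95 to 7.97) and erythroid cells (1.13 to 4.11) overlapped between genotypes, with Lcn10-KO at 409 to 453, 1802 to 2313, 3998 to 4485, 386 to 841, 6.39 to 10.4 and 3.20 to 6.76. Within the endothelial list *Stab2* (25.3 ± 5.25 in WT and 65.3 ± 20.2 in Lcn10-KO, SD, n = 3, limma adjusted p = 0.0121) and *Egfl7* (21.3 ± 5.81 and 48.7 ± 12.2, limma adjusted p = 0.0203) were called higher, without overlap. *Pecam1*, *Cdh5*, *Emcn* and *Tek* overlapped and were not called, with Lcn10-KO means at 196%, 177%, 232% and 210% of WT. *Kdr*, the most abundant, also overlapped, with Lcn10-KO at 88.2% of WT. The part of these markers in the chaperone values was not tested. WT replicate 1 stood apart from the other WT libraries in the chaperones, so values without it are given below.

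In WT the set spanned a 2312-fold range of levels per transcript length. *Hspa8*, the constitutive Hsp70, stood highest at 16711 ± 1291 normalized counts per kilobase (mean ± SD, n = 3), followed by *Hsp90ab1*, the constitutive Hsp90, at 10405 ± 809. *Hsp90aa1*, its inducible relative, and *Ahsa1*, which stimulates the ATPase of Hsp90, came next at 4127 ± 275 and 4090.4 ± 392. Their WT ranges overlapped, at 3898 to 4433 and 3725 to 4505. At the other end stood the stress-inducible *Hspa1b* at 29.4 ± 7.21 and *Hspa1a* at 7.23 ± 0.767, so that *Hspa8* exceeded *Hspa1b* 569-fold per kilobase in WT and 544-fold in Lcn10-KO. *Hspd1* and *Hspe1* had levels per kilobase of 2353 ± 276 and 2198 ± 191, a ratio of 1.07 in WT and 0.970 in Lcn10-KO. The length is that of the longest principal coding transcript in GENCODE M21, and 33 of the members have one. Coding transcripts of a gene can differ widely in length, from 1144 to 7851 bases for *Cdc37* and 235 to 2441 for *Cct7*. Levels per kilobase depend on this choice, which the SD does not include. *Cct6a* has none there and is left out of every comparison of levels.

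**Figure D1:**
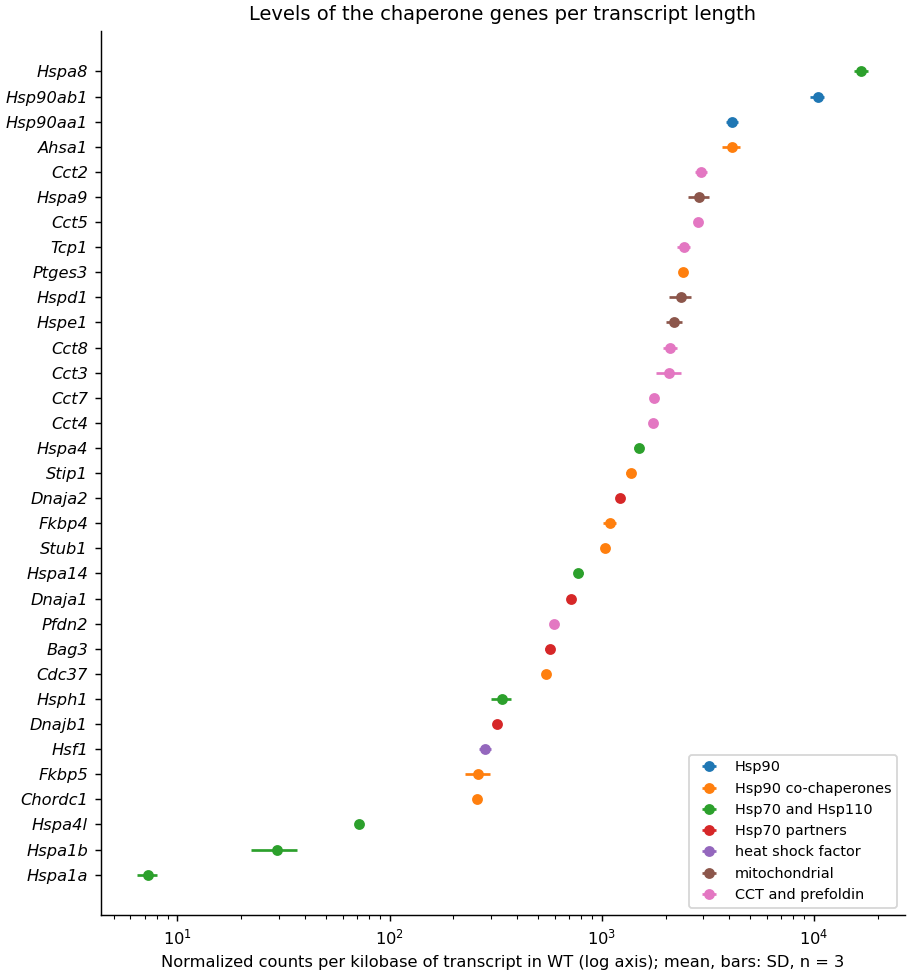
Level of 33 chaperone genes in the 3 WT libraries, in normalized counts per kilobase of transcript on a log axis, as mean with SD. Hspa8 and Hsp90ab1 lead, the CCT subunits lie close together, and Hspa1b and Hspa1a are at the bottom.

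The subunits of CCT, which stand side by side in the ring of the complex, lay close together. Over the 7 subunits with a length the WT level per kilobase ranged 1.70-fold, with a coefficient of variation of 21.4%. *Cct2* (2951 ± 192) and *Cct5* (2835 ± 74.8) were highest, followed by *Tcp1* (2439.7 ± 166), *Cct8* (2099.8 ± 161), *Cct3* (2077 ± 276), *Cct7* (1769 ± 61.6) and *Cct4* (1736 ± 30.5). *Cct2* and *Cct5*, *Cct8* and *Cct3*, and *Cct7* and *Cct4* differed by less than the SD of the first of each pair. Both genes of a pair were measured in the same libraries, so an SD between libraries does not decide their order. Members outside CCT lay within the range of its subunits: *Hspa9* at 2874, *Ptges3* at 2403, *Hspd1* at 2353 and *Hspe1* at 2198. A link between the levels of the subunits and their shared ring was not tested. Prefoldin, which hands unfolded actin and tubulin to CCT, is represented by *Pfdn2* at 595 ± 20.4.

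The set as a whole was lower in Lcn10-KO by a small amount. Its log2 fold changes, fitted with limma on log2(value + 1), had a median of −0.12, beside −0.0011 over all 12091 genes tested. Negative were 33 of 34, beside 6077 of all genes tested. Each log2 fold change below is Lcn10-KO minus WT, given ± its SE. For this SE limma draws the variance of a gene toward a trend over all genes, so it is not the spread of that gene alone. Past an adjusted p of 0.05 and lower were 10 members: *Hsp90aa1*, *Stip1*, *Fkbp4*, *Fkbp5*, *Ptges3*, *Hspa4*, *Hsph1*, *Cct6a*, *Cct7* and *Cct8*. Over all genes 5.14% were called lower and 4.7% higher. No member was called higher. The 3 Lcn10-KO values lay below the 3 WT values in 21 members, which was the case for 16.9% of all genes, and overlapped in the other 13. Since the choice of the set used this contrast, these shares are printed for scale and nothing is read from them. Together the 34 genes took 0.953%, 0.839% and 0.865% of all normalized counts in WT replicates 1 to 3 and 0.808%, 0.792% and 0.783% in Lcn10-KO. In bulk RNA, fewer cells of a type and less RNA per cell cannot be told apart.

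**Figure D2:**
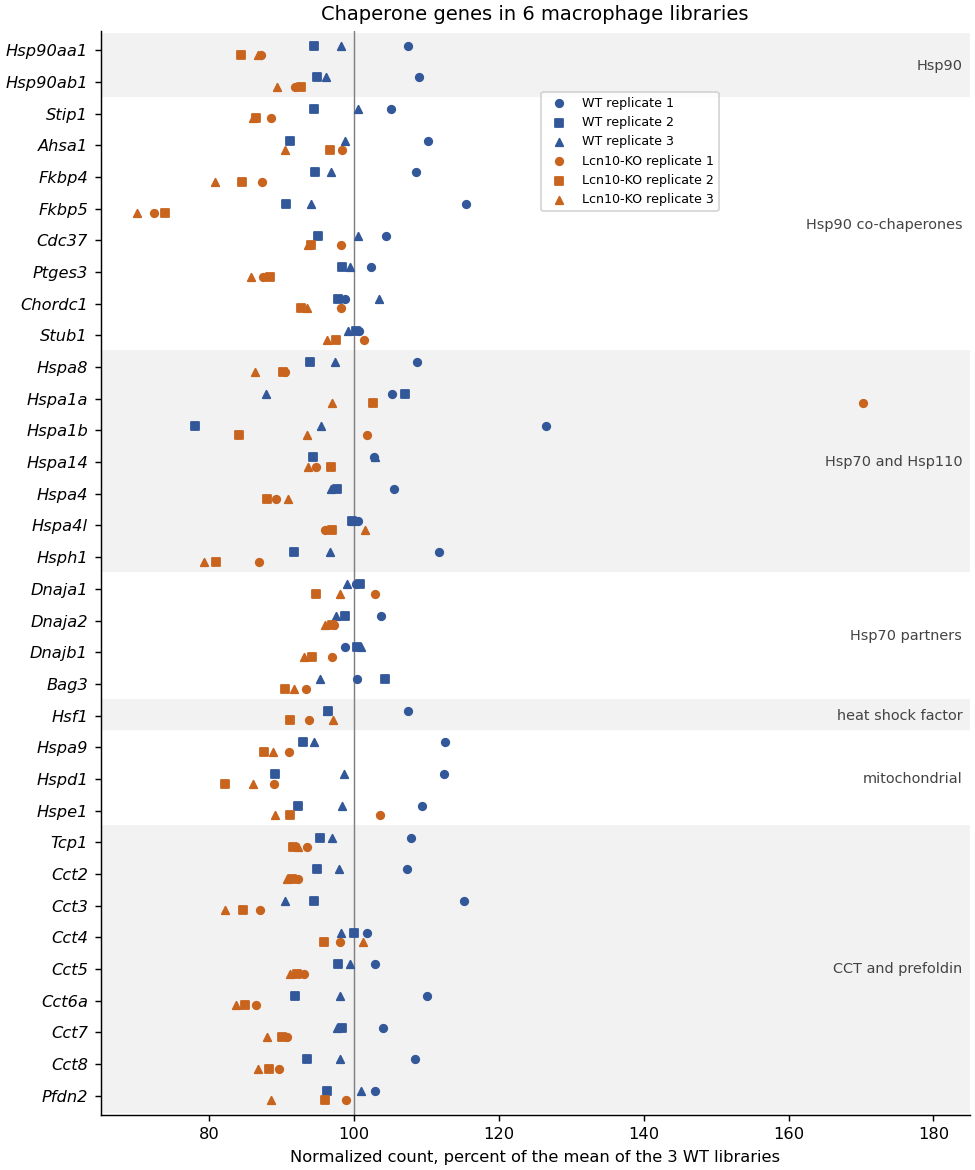
Normalized count of each of the 34 chaperone genes in each library, as a percentage of the mean of the 3 WT libraries, with WT in blue, Lcn10-KO in orange and replicate numbers by symbol. WT replicate 1 is the rightmost WT point in 28 genes, and Fkbp5 lies farthest to the left in Lcn10-KO.

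Hsp90 itself was present at high counts in every library. *Hsp90aa1* (chromosome 12, 110690605 to 110702728, GRCm38) had 14543, 12791 and 13288 normalized counts in WT replicates 1 to 3 and 11797, 11426 and 11752 in Lcn10-KO. *Hsp90ab1* had 28567, 24879 and 25216 in WT and 24082, 24297 and 23417 in Lcn10-KO. In both genes the genotypes did not overlap, and WT replicate 1 was the highest library. The log2 fold changes were −0.21 ± 0.049 for the inducible and −0.13 ± 0.052 for the constitutive form, and without WT replicate 1 they were −0.16 and −0.066. *Hsp90aa1* stood at 50.9, 51.4 and 52.7% of *Hsp90ab1* in WT and at 49.0, 47.0 and 50.2% in Lcn10-KO, and the ranges did not overlap.

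Of the 8 genes that work with Hsp90, 4 were called lower and 4 were not. *Fkbp5* (chromosome 17, 28399094 to 28517527, minus strand), an immunophilin that binds Hsp90 in steroid receptor complexes and is known to be induced by glucocorticoids, differed the most in the set. It had 1164, 913 and 948 normalized counts in WT replicates 1 to 3 and 729, 745 and 706 in Lcn10-KO, a log2 fold change of −0.46 ± 0.082. WT replicate 1 was high, and without it Lcn10-KO still stood at 78.1% of the mean of the other WT libraries. *Fkbp4*, the related immunophilin that favours receptor transport, had 2625, 2287 and 2343 in WT and 2112, 2042 and 1953 in Lcn10-KO (−0.25 ± 0.056). These immunophilins thus both lay lower in each Lcn10-KO library than in any WT library.

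*Stip1*, the adaptor Hop that joins Hsp70 to Hsp90, had 3032, 2723 and 2899 normalized counts in WT and 2552, 2494 and 2482 in Lcn10-KO, with a log2 fold change of −0.20 ± 0.047. *Ptges3*, the co-chaperone p23 that holds Hsp90 in its closed state, had 4916, 4722 and 4778 in WT and 4199, 4249 and 4119 in Lcn10-KO (−0.20 ± 0.040). Its WT libraries differed little, and the value without WT replicate 1 was −0.18. The other Hsp90 partners were closer to WT. *Ahsa1* had a mean of 5632 ± 540.4 in WT and 5359 ± 236 in Lcn10-KO (SD, n = 3) and overlapped. *Cdc37*, which brings kinases to Hsp90, had 4287 ± 203 in WT and 4083 ± 109 in Lcn10-KO (log2 fold change −0.070 ± 0.046, and −0.038 without WT replicate 1). *Chordc1*, whose start carries the long run of heat shock units printed above, had 1500.4 ± 45.2 in WT and 1423 ± 44.6 in Lcn10-KO, and *Stub1*, the ubiquitin ligase CHIP that marks chaperone-bound proteins for the proteasome, 1865 ± 13.9 in WT and 1834 ± 48.9 in Lcn10-KO. In all 4 the genotypes overlapped. *Stub1* overlaps *Jmjd8* on the opposite strand over 1339 bases, and as the strand use of the counting is not given, their reads may be mixed. The same holds for *Fkbp5*, where an antisense gene of GENCODE covers 9958 bases of the gene body.

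Of the 7 Hsp70 and Hsp110 genes 2 were called lower. *Hspa8* had 43487, 37579 and 38954 normalized counts in WT replicates 1 to 3 and 36206, 36068 and 34546 in Lcn10-KO, without overlap (log2 fold change −0.17 ± 0.052, not past the threshold, and −0.10 without WT replicate 1). *Hspa1a* had 22.6, 22.9 and 18.8 in WT and 36.5, 22.0 and 20.8 in Lcn10-KO, and was the only member with a positive log2 fold change, 0.25 ± 0.28. *Hspa1b* had 104, 64.2 and 78.6 in WT and 83.7, 69.2 and 76.9 in Lcn10-KO (−0.078 ± 0.18). Both inducible genes overlapped between genotypes and varied widely, with Lcn10-KO replicate 1 highest for *Hspa1a* and WT replicate 1 for *Hspa1b*.

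*Hspa1a* rested on about 20 to 34 reads a library and *Hspa1b* on 56 to 95, so at this depth a difference of the size seen in the rest of the set was not detectable in them. Their coding sequences are identical at 98.2% of 1923 positions, and reads can be split between them, which makes each value uncertain. Their sum was 127, 87.2 and 97.4 in WT and 120.2, 91.2 and 97.7 in Lcn10-KO and also overlapped. *Hspa1a* shares 2225 bases with the coding gene *Gm20481* on the opposite strand, where reads may be mixed as well.

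The Hsp110 proteins, which exchange the nucleotide of Hsp70, included 2 called members. *Hsph1* had 1431, 1174 and 1239 normalized counts in WT and 1112, 1038 and 1015 in Lcn10-KO, with the second largest difference of the set (−0.28 ± 0.071, and −0.19 without WT replicate 1). *Hspa4* had 7273, 6729 and 6669.7 in WT and 6145, 6058 and 6261 in Lcn10-KO (−0.16 ± 0.044). Both were lower in each Lcn10-KO library. The third, *Hspa4l*, overlapped at 679.8 ± 3.43 in WT and 667 ± 20.2 in Lcn10-KO (SD, n = 3), as did *Hspa14*, an Hsp70 relative that acts at the ribosome, at 1393 ± 68.2 in WT and 1325 ± 22.4 in Lcn10-KO. *Hspa14* shares 8264 bases of its gene body with the coding gene *Gm45902* on the same strand, where reads may be mixed.

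None of the 4 partners of Hsp70 passed the threshold. *Bag3*, a nucleotide exchange factor that links Hsp70 to autophagy, had 1461, 1518 and 1387 normalized counts in WT and 1359.7, 1317 and 1334 in Lcn10-KO (−0.12 ± 0.049), without overlap. The J-domain genes were nearly level: Lcn10-KO stood at 98.5% of WT for *Dnaja1*, 96.7% for *Dnaja2* and 94.8% for *Dnajb1*. Of these *Dnaja1* overlapped, while *Dnaja2* and *Dnajb1* did not. *Dnaja1* shares 608 bases with *Smu1* on the opposite strand, where reads may be mixed. The value of *Dnaja2* (−0.047 ± 0.041 on the log2 scale) became −0.021 when WT replicate 1 was left out. *Dnajb1*, a classical target of HSF1, had 951, 968 and 972 in WT and 935, 908 and 897 in Lcn10-KO. *Hsf1* had 632, 567 and 566 in WT and 552, 536 and 571 in Lcn10-KO and overlapped (−0.088 ± 0.065, and −0.036 without WT replicate 1).

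The 3 mitochondrial members were not called. *Hspa9*, the Hsp70 of the matrix that pulls in imported proteins, had 9859, 8149 and 8282 normalized counts in WT replicates 1 to 3 and 7977, 7671 and 7784 in Lcn10-KO (−0.16 ± 0.066). *Hspd1* had 6408, 5077 and 5618 in WT and 5069, 4687 and 4905 in Lcn10-KO (−0.22 ± 0.076), and *Hspe1* had 1861, 1569 and 1672 in WT and 1762, 1551 and 1515 in Lcn10-KO (−0.080 ± 0.073). In all 3 genes WT replicate 1 was far above the other WT libraries, at 120.0%, 119.8% and 115% of their mean for *Hspa9*, *Hspd1* and *Hspe1*. Without it the log2 fold changes were −0.073, −0.13 and −0.013, each moved by more than 1.5 times. *Hspe1* stood at 29.1, 30.9 and 29.8% of *Hspd1* in WT and 34.8, 33.1 and 30.9% in Lcn10-KO. These ranges overlap slightly, since Lcn10-KO replicate 3 lay just under WT replicate 2. The 2 genes also overlap by 112 bases at their starts, where their reads may be mixed.

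All 8 CCT subunits had negative log2 fold changes, from −0.23 to −0.025, and 3 were called. *Cct6a* had 5053, 4213 and 4503 normalized counts in WT and 3966, 3897 and 3841 in Lcn10-KO (−0.23 ± 0.059), and *Cct8* had 5451, 4702 and 4928 in WT and 4504, 4437 and 4360.1 in Lcn10-KO (−0.18 ± 0.052, and −0.12 without WT replicate 1). *Cct7* had 4491, 4245 and 4219 in WT and 3921, 3891 and 3796 in Lcn10-KO (−0.16 ± 0.042). In these 3 genes each Lcn10-KO library lay below each WT library.

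*Cct3* had 4728, 3877 and 3713 in WT and 3570.0, 3474 and 3376 in Lcn10-KO. Its log2 fold change was the most negative of the ring, −0.23 ± 0.083, but WT replicate 1 stood at 125% of the other WT libraries, and without it the value was −0.13. *Cct2* had 6202, 5479.8 and 5658 in WT and 5336, 5281 and 5246 in Lcn10-KO, *Tcp1* had 6434, 5684 and 5784 in WT and 5582, 5462 and 5507 in Lcn10-KO, and *Cct5* had 5405, 5133 and 5219.5 in WT and 4889, 4840.1 and 4784 in Lcn10-KO. None of these 4 was called, although their genotypes did not overlap. Without WT replicate 1 the log2 fold changes of *Cct2*, *Tcp1* and *Cct5* were −0.075, −0.056 and −0.10.

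*Cct4* was the exception in the ring. It had 4388, 4312 and 4237 normalized counts in WT and 4227, 4130.1 and 4363 in Lcn10-KO, with Lcn10-KO replicate 3 above WT replicates 2 and 3 (−0.025 ± 0.041, and −0.012 without WT replicate 1). Summed over the 8 subunits the values were 42153, 37646 and 38262 in WT and 35994, 35412 and 35273 in Lcn10-KO. *Pfdn2* had 1033 ± 35.3 in WT and 976 ± 55.2 in Lcn10-KO (SD, n = 3) and overlapped. *Cct6a* overlaps *Psph* on the opposite strand over 452 bases, and *Psph* had means of 449 and 358 normalized counts in WT and Lcn10-KO. *Cct8* and *Tcp1* overlap *Usp16* and *Mrpl18* in the same way, over 192 and 645 bases. *Cct7* overlaps *Pradc1* over 457 bases. Here too the reads may be mixed.

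WT replicate 1 was high in much of this set. Its values entered the WT mean on which the set was selected, so its position is a description and nothing is read from the shares beside it. It had the highest of the 3 WT values in 28 of the 34 members, a position it held in 38.6% of all genes tested. Its median level over the members was 110.0% of the mean of the other WT libraries, against 100.1% over all genes. The median coefficient of variation of the members was 6.45% in WT and 2.63% in Lcn10-KO, beside 6.27% and 4.68% over all genes. Around the mean of the 6 libraries the median member lay at 0.16 log2 units in WT replicate 1, 0.0070 in WT replicate 2 and 0.040 in WT replicate 3, and at −0.046, −0.074 and −0.090 in Lcn10-KO replicates 1 to 3. Without WT replicate 1 the median log2 fold change of the set was −0.080, 31 of 34 values were negative, and 8 of the 10 called members were still called. *Hspa4* and *Cct8* were not, and *Ahsa1* (0.0035), *Hspa1a* (0.29) and *Hspa1b* (0.10) had positive values. Of all genes tested without WT replicate 1, 4.72% were called lower. 

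**Figure D3:**
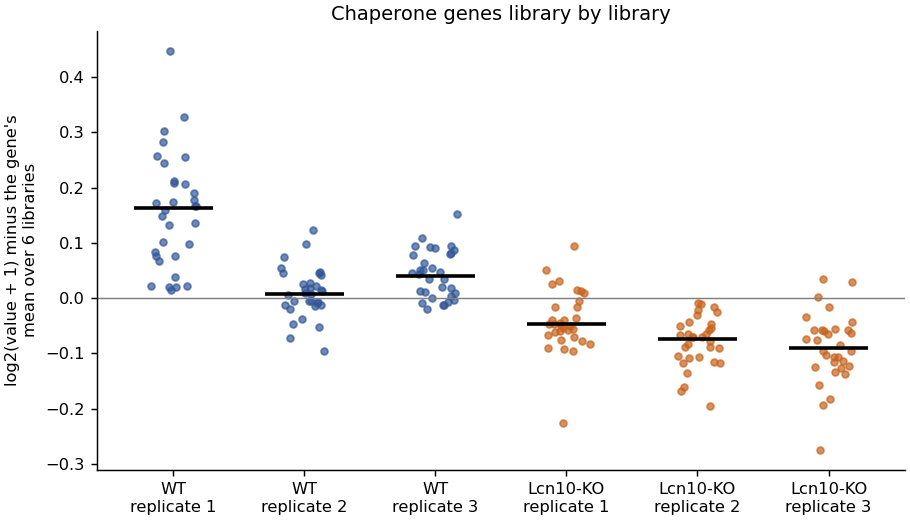
Each point is 1 chaperone gene in 1 library, as log2(value + 1) minus the mean of that gene over the 6 libraries, and black lines are medians over all 34 genes. Hspa1a and Hspa1b, which spread more widely, enter the medians but are not drawn. WT replicate 1 lies highest, with a median of 0.16.

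**Figure D4:**
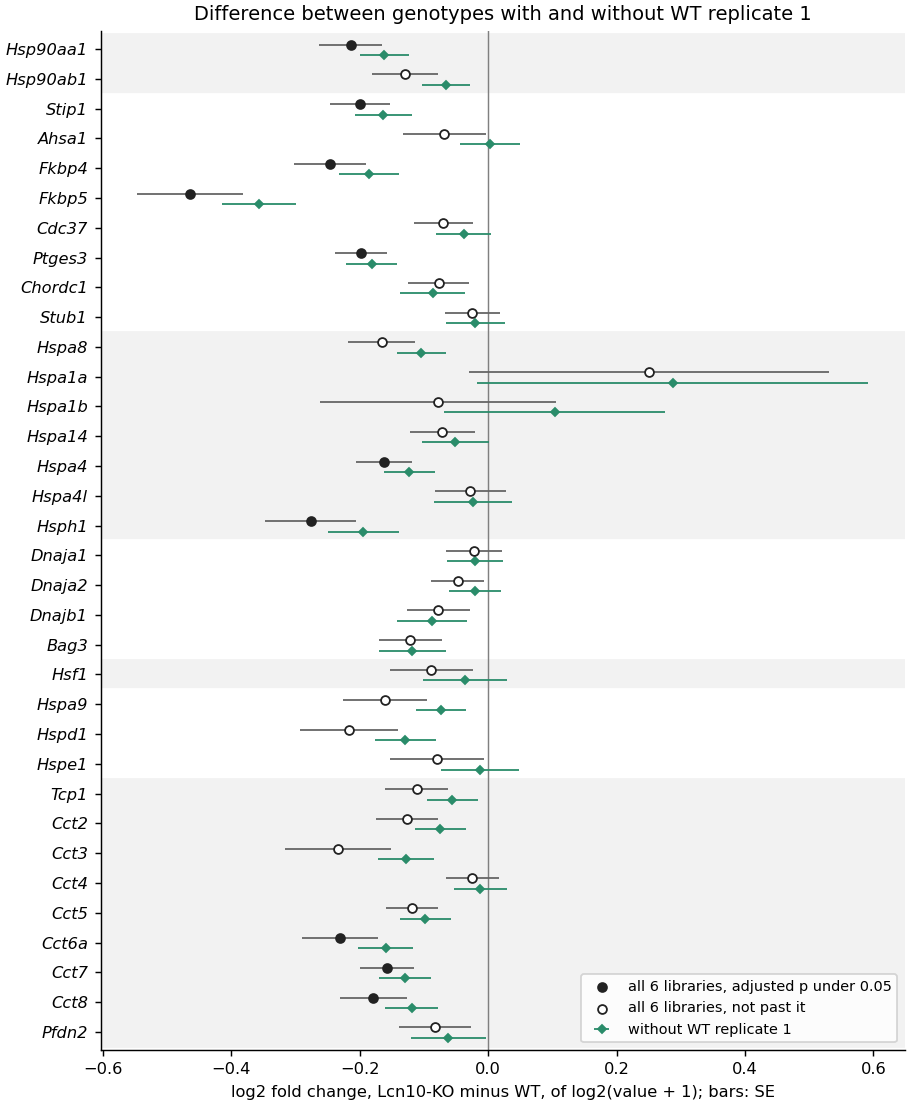
Log2 fold change (Lcn10-KO minus WT) of each chaperone gene with its SE, from all 6 libraries (circles, filled where the adjusted p was under 0.05) and without WT replicate 1 (diamonds). Most diamonds lie nearer to 0 than the circles, and the medians are −0.12 and −0.080.

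Calls depended on each Lcn10-KO library too. Of the 10 called members 5 kept their call without WT replicate 3 (*Fkbp4*, *Fkbp5*, *Hsp90aa1*, *Hspa4* and *Ptges3*), 3 without Lcn10-KO replicate 1 (*Fkbp4*, *Fkbp5* and *Ptges3*), 1 without Lcn10-KO replicate 2 (*Fkbp5*) and 0 without Lcn10-KO replicate 3. Unadjusted p under 0.05 and lower were 13 members in that last limma fit. How many of all genes reached this p there was not computed. The share of all genes called lower fell alongside, to 2.3%, 0.85% and 0.699% without Lcn10-KO replicates 1, 2 and 3. Without WT replicate 3 it was 4%. The medians of the set lay between −0.15 and −0.080 over the leave-outs. The set was picked on these same libraries, so nothing is read from this.

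Other genes of protein folding were looked at in lists that hold no member. For scale beside the counts in these and the later lists, 5.14% of all genes tested were called lower and 4.7% higher. At an unadjusted limma p under 0.05, 1675 of all 12091 genes were lower and 1505 higher. Negative log2 fold changes were found in 6077 of the 12091. Of 24 tested cofactors of Hsp90 and Hsp70 outside the set, 1 was lower and 0 were higher by limma, with a median log2 fold change of −0.060. That gene was *Ruvbl1*, an ATPase of the R2TP complex that assembles large complexes with Hsp90. It had 727, 689 and 705 normalized counts in WT and 641, 598 and 610.3 in Lcn10-KO (log2 fold change −0.20 ± 0.058, limma adjusted p = 0.0485). Its partner *Ruvbl2* had a similar value that missed the threshold (−0.21 ± 0.062, limma adjusted p = 0.0547), as did *Nudc* (−0.14 ± 0.048) and *Bag1* (−0.13 ± 0.051).

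Of 21 other J-domain genes 2 were lower and 0 higher, with a median of −0.0048. *Dnajb4*, a relative of *Dnajb1*, fell from 1750.3, 1665 and 1634 to 1523, 1426 and 1427 normalized counts (−0.21 ± 0.049, limma adjusted p = 0.0228), and *Dnajc9*, a histone chaperone, by 0.17 on the log2 scale (limma adjusted p = 0.0466). *Dnajc2*, at the ribosome, and *Dnajc21* had −0.16 ± 0.056 and −0.17 ± 0.080 and did not pass. The list of 20 mitochondrial folding and proteolysis genes had 0 calls by limma (4 lower and 0 higher at an unadjusted p under 0.05), with a median of −0.077 and 17 negative values. Its smallest p belonged to *Dnajc11* (−0.14 ± 0.048), *Clpp*, a matrix protease (−0.23 ± 0.082), *Phb2* (−0.13 ± 0.049) and *Afg3l2* (−0.13 ± 0.052).

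The remaining prefoldin subunits and helpers of CCT, 11 genes, had 0 calls by limma, 0 at an unadjusted p under 0.05, and a median of 0.00024. Their values had both signs, with *Pfdn5* at 0.10 ± 0.050, *Vbp1* at 0.10 ± 0.051, *Uri1* at −0.10 ± 0.065 and *Pfdn6* at −0.10 ± 0.067. Their difference from the CCT subunits was not tested. Among the small heat shock proteins and further heat shock factors 7 of 12 passed the filter on low values and 0 were called by limma (1 higher at an unadjusted p under 0.05). *Hsbp1*, which binds HSF1 and is described as its negative regulator, had 2243, 2391 and 2428 in WT and 2542, 2665 and 2623 in Lcn10-KO, higher in each Lcn10-KO library (0.15 ± 0.046, limma adjusted p = 0.0561). *Hspb6* had 0.29 ± 0.13, *Hsf2* −0.059 ± 0.058 and the stress-inducible *Cryab* −0.22 ± 0.56.

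**Figure D5:**
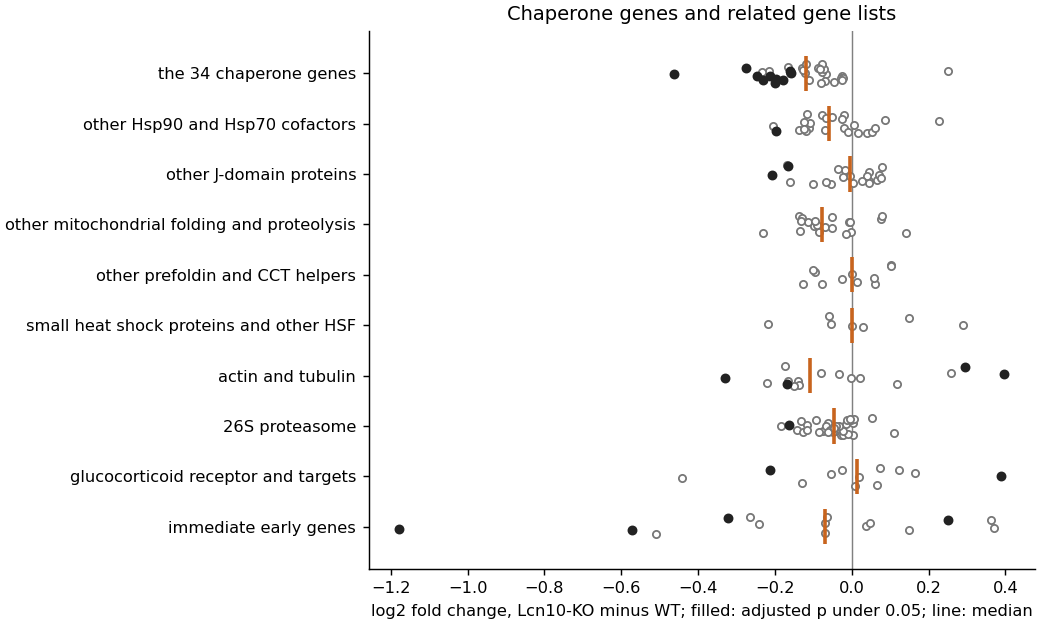
Log2 fold change (Lcn10-KO minus WT) of every tested gene in the set and in 9 related lists that hold no member, filled where the limma adjusted p was under 0.05, with the median as a line. The J-domain and prefoldin lists have medians near 0, and the actin and tubulin list has a median of −0.11 with calls in both directions.

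Actin and tubulin are the main clients of CCT. Of 16 tested genes 2 fell and 2 rose, where 5.14% of all genes were called lower and 4.7% higher. The list's median was −0.11, 11 of 16 values were negative, and 7 were lower and 2 higher at an unadjusted p under 0.05 by limma. *Actb*, cytoplasmic beta-actin, fell from 111646, 105897 and 100746 to 94173, 96402 and 92202 normalized counts (−0.17 ± 0.044, limma adjusted p = 0.0323), and *Tuba4a*, an alpha-tubulin, from 1279.8, 1077 and 1090.4 to 937, 876 and 922 (−0.33 ± 0.067, limma adjusted p = 0.0124). *Tuba1a* and *Tubb2a*, an alpha- and a beta-tubulin, rose by 0.40 and 0.29 on the log2 scale (limma adjusted p = 0.0031 and 0.00202). Tubulin genes resemble each other closely, and their reads can be split between them. The 32 genes of the 26S proteasome, which degrades what chaperones fail to fold, had 1 call, *Psmd3* (from 2118, 1976 and 2063 to 1845, 1867 and 1785, limma adjusted p = 0.0411), and a median of −0.045 with 27 negative values. *Psmd11*, *Psmb3* and *Psmc4* had −0.19 ± 0.060, −0.14 ± 0.050 and −0.13 ± 0.048 and did not pass.

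Because *Fkbp5* is known as a glucocorticoid-induced gene, other genes of that response stand beside it. Of 12, 1 fell and 1 rose, beside 5.14% lower and 4.7% higher over all genes. *Tsc22d3*, which codes for GILZ and is induced by glucocorticoids as well, rose from 568, 744 and 705 to 818, 895 and 913 normalized counts (0.39 ± 0.095, limma adjusted p = 0.033), the opposite direction to *Fkbp5*. *Sgk1*, a kinase, fell from 1339, 1293 and 1302 to 1152, 1089.6 and 1153 (−0.21 ± 0.048, limma adjusted p = 0.0192). *Mt1* and *Pdk4* had 0.12 ± 0.050 and −0.44 ± 0.23 and did not pass, and the list's median was 0.014. The part of glucocorticoids in the *Fkbp5* values was not tested.

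Immediate early genes are transcribed within minutes of a stimulus. Of 15 such genes 3 fell and 1 rose, beside 5.14% lower and 4.7% higher over all genes. *Nr4a1*, an orphan nuclear receptor, fell from 182, 223 and 194 to 149, 137 and 117, *Dusp1*, a phosphatase of MAP kinases, from 1276, 1104 and 1105 to 974, 917 and 889.9, and *Fosb*, a partner of Jun, from 52.6, 32.7 and 42.3 to 21.0, 14.2 and 19.2 (limma adjusted p = 0.0155, 0.0117 and 0.018). *Atf3*, a stress-induced repressor, rose by 0.25 on the log2 scale (limma adjusted p = 0.0186). The list's median was −0.069. The part of these genes in the chaperone values was not tested.

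The calls in the related lists also changed when 1 library was left out. The share of all genes called lower fell as well, to 2.3%, 0.85% and 0.699% without Lcn10-KO replicates 1, 2 and 3. It was 4.72%, 7.1% and 4% without WT replicates 1, 2 and 3. Of 14 called genes, *Tuba1a* and *Tubb2a* passed whichever library was left out. They were the 2 that passed without Lcn10-KO replicate 2 or without Lcn10-KO replicate 3, while 9 passed without Lcn10-KO replicate 1 or without WT replicate 3, and 11 without WT replicate 1. *Ruvbl1*, *Dnajc9* and *Psmd3* passed in 1 of the 6 leave-outs, the one without WT replicate 2.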

How the data were processed

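RNA of untreated bone marrow-derived macrophages was sequenced in 6 libraries, 3 per genotype, grouped by the labels' titles. The deposited values are a signal per gene, normalized read counts whose library totals were nearly equal. They are not whole numbers and never fall below 0. The submitters' processing notes name DESeq2, Salmon 0.11.2, STAR 2.6.1a and bcl2fastq as tools, without their roles, and mm10 as build. What annotation, filters and strand setting were applied is not given in these sources. One read was worth 0.824 to 1.14, and 90.1% to 92.6% of low values (up to 10 reads) were whole reads within 0.1, too few to turn the table back into counts.

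A gene was tested when 3 or more libraries reached a value of 10. The test was limma (version 3.58.1, R 4.3.3) on log2(value + 1), fitted to genotype alone with robust, trended variances and Benjamini-Hochberg adjustment over all genes at 0.05. The procedure was tested on simulated data. The members and the related lists were chosen with earlier results of these data known. Values in every library are given for called members, the largest difference in each role, *Hspa1a*, *Hspa1b*, *Fkbp5*, *Hsf1* and the CCT subunits; others given in full (*Hsp90ab1*, *Hspa8*, *Hspa9*, *Hspe1*, *Dnajb1*) were added afterwards. Of each related list up to 4 genes with the smallest p are named. Positions and transcript lengths are from GENCODE M21 (GRCm38), promoters from RefSeq (GRCm38.p6). Alternatives changed the scaling, trend, filter, pseudocount and replicate block, or left out 1 library. Plots used Python 3.11.15 and matplotlib 3.10.9.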

Additional observations from a re-analysis of the deposited data

How the results depend on the processing

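Under the scalings, filters, pseudocounts and leave-outs tried, the set's median log2 fold change lay between −0.15, without WT replicate 2, and −0.080, without WT replicate 1. The set was picked for its fall in these same libraries. Its unchanged direction is therefore a description and no check of the difference. The number of calls varied. In limma without the trend 8 genes were lower and 6 higher, 0 members were called (12 lower at an unadjusted p under 0.05), and each related list had 0 calls in either direction. How many of all genes reached that unadjusted p was not computed. Members called lower numbered 9 after quantile normalization, median ratio rescaling or without a filter on low values, *Cct8* being lost each time. In these fits 4.8%, 5.07% and 3.2% of all genes were called lower, in that order. Of the cofactors of Hsp90 and Hsp70, 0 were lower after quantile normalization or with no filter, and of the J-domain genes 1. For the proteasome it was 0 lower in both settings, and for the small heat shock proteins 1 was higher after quantile normalization.

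The labels used here do not say whether replicate numbers pair the libraries, and the correlations do not settle it. Deviations of same-numbered libraries from their group means correlated at 0.038, 0.073 and 0.014. Of these, 0.073 and 0.038 were the largest among all pairs of a WT and a Lcn10-KO library. WT replicate 3 correlated more with Lcn10-KO replicate 1 (0.026) than with its own number. With the replicate number as a block the 10 members kept their calls among 13 called, while 6.96% of all genes were called lower (5.14% without the block), and calls were 2 lower for the cofactors, 4 lower for actin and tubulin, 2 lower for the proteasome, 1 higher for the small heat shock proteins and 2 higher for the immediate early genes.

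Leaving out 1 library at a time gave 84 to 854 genes called lower in Lcn10-KO and 91 to 810 genes called higher in Lcn10-KO, 0 to 13 members lower, 0 to 4 cofactors lower, 0 to 3 J-domain genes lower, 0 to 6 actin and tubulin genes lower, 0 to 4 proteasome genes lower and 0 to 1 higher, 0 to 1 glucocorticoid genes lower and 0 to 1 higher, and 0 to 4 immediate early genes lower and 0 to 2 higher. The cause of these differences was not tested. Leaving a genotype with 2 libraries also leaves fewer samples for the error.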
